A study of Mus musculus with 2 samples.

Results

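Proteasome genes were compared between liver RNA of Bglu3 congenic mice and of C57BL/6 apoE-/- control mice, with 1 Affymetrix array for each. The genes are those whose symbol begins with Psm, a letter from a to g and a digit, and which have at least 1 probe set with a single gene symbol in the platform annotation. There are 49 of them among 18193 genes, read by 103 probe sets. They comprise 47 subunits, activators, inhibitors and assembly chaperones of the proteasome, and the 2 genes Psmc3ip and Psme3ip1, which carry the name but encode proteins that bind a partner of that name and are no subunits. Bglu3 is a blood glucose locus of mouse chromosome 1, and congenic mice hold the chromosome stretch of interest from a donor strain in an otherwise shared genome. Both groups were weaned to chow at 3 weeks of age, received a Western diet from 6 weeks of age for 12 weeks, and are labelled as hyperglycemic with C57BL/6 as a strain. The labels give no sex, number of animals per array or pooling, the donor strain and the apoE genotype of the congenic mice are not stated, and with 1 array per group no difference below has a replicate check or a test.

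The proteasome is the barrel-shaped protease that degrades most ubiquitin-tagged proteins of a cell. Its 20S core stacks rings of alpha subunits, which gate the entrance, on rings of beta subunits, of which Psmb5, Psmb6 and Psmb7 hold the catalytic sites. The 19S cap recognizes ubiquitin, unfolds the substrate with a ring of ATPases and feeds it into the core. Under interferon gamma, and constitutively in many cells of the blood lineage, Psmb8, Psmb9 and Psmb10 are built into new cores in place of Psmb5, Psmb6 and Psmb7, and this immunoproteasome favours peptides that fit MHC class I molecules. In the hepatocyte the constitutive form is the usual one.

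The sequences before the starts of the inducible genes and of the constitutive counterparts that the promoter table holds are shown first, since the report turns on these pairs. They are RefSeq sequences of build GRCm38.p6, written 5' to 3' on the strand of the gene and ending at the base before the start. Capitals mark matches, on either strand, to the gamma-activated site TTCNNNGAA bound by interferon-activated STAT factors, the interferon-stimulated response element (GAAA, any 2 bases, GAAA), the antioxidant response element cores TGACNNNGC and TGAGNNNGC, or the CCAAT box CCAAT. Psmb8 (chr17:34197945-34198194, plus strand), Psmb10 (chr8:105938393-105938642, minus strand), Psmb5 (chr14:54617996-54618245, minus strand) and Psmb6 (chr11:70525107-70525356, plus strand) are shown over 250 bases. Psmb9 (chr17:34187331-34187555, minus strand) is shown over the 225 bases that separate its start from that of Tap1, a subunit of the peptide transporter, which is read in the other direction.
Psmb8: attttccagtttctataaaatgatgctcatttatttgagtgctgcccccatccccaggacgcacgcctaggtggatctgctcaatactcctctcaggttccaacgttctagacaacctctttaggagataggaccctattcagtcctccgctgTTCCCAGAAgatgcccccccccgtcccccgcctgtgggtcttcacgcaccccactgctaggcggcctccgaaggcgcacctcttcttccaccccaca
Psmb9: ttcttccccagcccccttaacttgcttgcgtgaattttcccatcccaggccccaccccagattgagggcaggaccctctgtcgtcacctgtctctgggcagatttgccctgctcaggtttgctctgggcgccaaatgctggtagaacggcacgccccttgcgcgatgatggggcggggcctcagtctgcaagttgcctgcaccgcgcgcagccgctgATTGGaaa
Psmb10: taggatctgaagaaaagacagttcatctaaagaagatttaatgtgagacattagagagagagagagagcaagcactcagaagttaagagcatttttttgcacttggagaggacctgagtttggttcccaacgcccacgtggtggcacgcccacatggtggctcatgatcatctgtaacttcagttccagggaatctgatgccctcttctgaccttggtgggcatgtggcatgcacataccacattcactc
Psmb5: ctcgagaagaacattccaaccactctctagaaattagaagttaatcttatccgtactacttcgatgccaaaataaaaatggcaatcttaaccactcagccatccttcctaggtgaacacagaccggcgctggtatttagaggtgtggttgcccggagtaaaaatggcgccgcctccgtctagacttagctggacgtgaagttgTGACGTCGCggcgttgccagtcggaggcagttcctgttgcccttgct
Psmb6: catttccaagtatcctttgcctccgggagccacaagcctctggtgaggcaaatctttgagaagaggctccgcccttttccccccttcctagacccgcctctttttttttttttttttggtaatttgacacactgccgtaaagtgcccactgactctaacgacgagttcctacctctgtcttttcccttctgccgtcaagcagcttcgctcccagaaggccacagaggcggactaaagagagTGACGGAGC
The capitals of Psmb8 are a gamma-activated site at -97 to -89 from the start, those of Psmb9 a CCAAT box at -8 to -4, and those of Psmb5 and Psmb6 antioxidant response element cores at -47 to -39 and -9 to -1. No match to these letters lies in the window of Psmb10.

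The deposited values are linear intensities with medians of 19.3 on the congenic against 19.7 on the control array. A gene is represented by its brightest probe set, and counts as expressed when that probe set reaches the array median on either of the arrays, which holds for 12613 genes. A difference is the congenic value minus the control value on the scale log2(intensity + 5), which understates changes of dim genes; folds are on the same scale, and 1.5-fold (0.58) is used as a size to count by. Of 49 proteasome genes, 48 were expressed, 46 of them on both arrays, while Psma8 and Psmc3ip passed on 1 array alone and so had to differ, and Psmb11 did not pass. Among the 48, 3 were higher and 1 was lower by 1.5-fold or more, together 8.33%, beside 12.9% of all expressed genes (7.59% higher and 5.26% lower). Among the 3154 bright genes, those in the upper 25% of mean intensity, where the alpha, constitutive beta and 19S subunits other than Psma8 lie, the share was 5.99%. Of the hepatocyte markers, Alb stood at 14121 against 12910 and the dimmest, Ass1, at 65.0 against 77.2, with a median difference of 0.05 over 12 expressed genes. Apoe, which the controls carry in disrupted form, stood at 229 on the congenic against 118 on the control array, but its probe set may lie outside the disrupted stretch, so the value checks nothing.

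**Figure D1:**
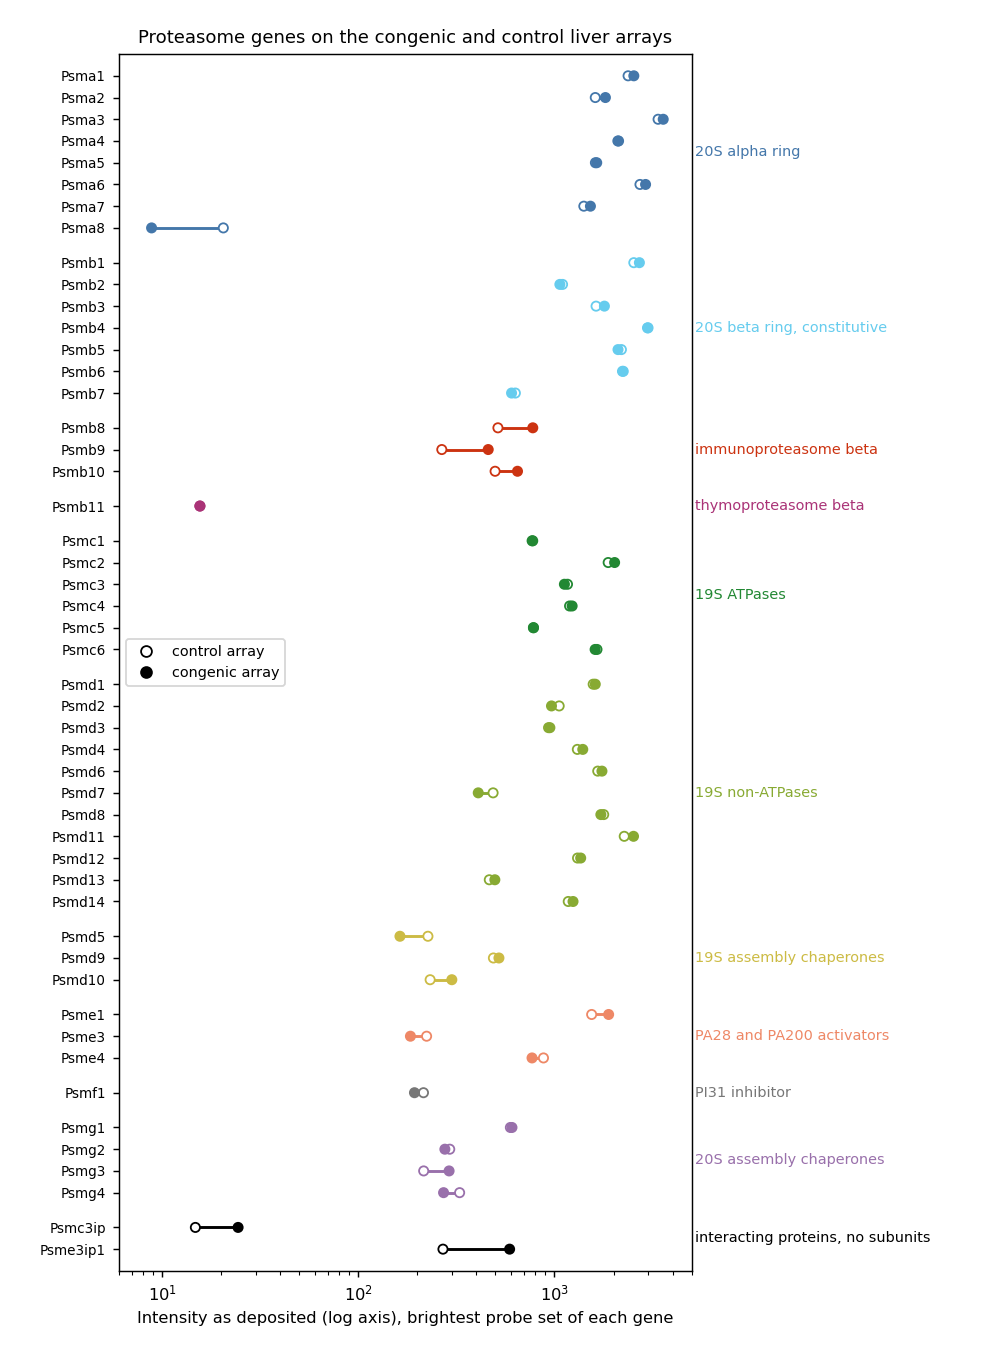
Intensity of the brightest probe set of each of the 49 genes (log axis, as deposited) on the control array (open) and the congenic array (filled), grouped by role. The points of most alpha, constitutive beta and 19S subunits nearly coincide apart from the dim Psma8, while the filled points of Psmb8, Psmb9, Psmb10 and Psme3ip1 lie to the right of the open ones.

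The immunoproteasome subunits were higher in the congenic array. Psmb9, the inducible counterpart of the caspase-like subunit Psmb6, had an intensity of 460 on the congenic against 267 on the control array, a log2 difference of 0.77 or 1.71-fold. Psmb8, which replaces the chymotrypsin-like subunit Psmb5, stood at 775 against 515 (0.59, or 1.501-fold). Psmb10, which replaces the trypsin-like subunit Psmb7, stood at 648 against 498 (0.38, or 1.30-fold). The congenic array was thus the higher for all 3 by their brightest probe set. Psmb8 lay at the 1.5-fold line itself, and with quantile normalization (0.56), a loess trend removed (0.56) or a pseudocount of 20 (0.57) it was below it.

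Psmb8 is also the inducible subunit with a second probe set, and that one went the other way. Its intensities were 213 on the congenic against 255 on the control array, a log2 difference of -0.26, and its name ends in _x_at, which Affymetrix gives to probe sets with probes that can bind other transcripts. The brightest probe sets of Psma6 and Psmc2, whose values are given below, have the same ending. With both probe sets averaged, Psmb8 differed by 0.17. Psmb9 and Psmb10 each had 1 probe set, so no second reading exists for either on these arrays. The thymus-specific subunit Psmb11 was at 15.6 on both arrays, below their medians.

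The constitutive catalytic subunits stood at nearly equal intensities on the arrays. Psmb5 had 2108 on the congenic against 2194 on the control array (log2 difference -0.06), Psmb6 had 2242 against 2222 (0.01), and Psmb7 had 604 against 632 (-0.06). The other beta subunits form the ring around these sites. Psmb1 differed by 0.09, Psmb2 by -0.05, Psmb3 by 0.14 and Psmb4 by 0.01, and the median of all 7 constitutive beta subunits was 0.01. The directions of such small values turn with the rule for genes with several probe sets, and the mean over probe sets put this median at -0.05.

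Set against its constitutive counterpart, each inducible subunit was the higher by its brightest probe set. The log2 difference of Psmb8 exceeded that of Psmb5 by 0.64, that of Psmb9 exceeded that of Psmb6 by 0.76, and that of Psmb10 exceeded that of Psmb7 by 0.44. As ratios of folds these are 1.56, 1.70 and 1.36. The median of the 3 inducible subunits exceeded that of the 7 constitutive ones by 0.58. Scaling and pseudocount moved the pair of Psmb9 between 0.71 and 0.77 and that of Psmb10 between 0.43 and 0.44. The pair of Psmb8 lay between 0.61 and 0.65 under the same settings and at 0.22 when probe sets were averaged. These are differences between arrays within a gene, and the intensities of different probe sets were not compared with each other.

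**Figure D2:**
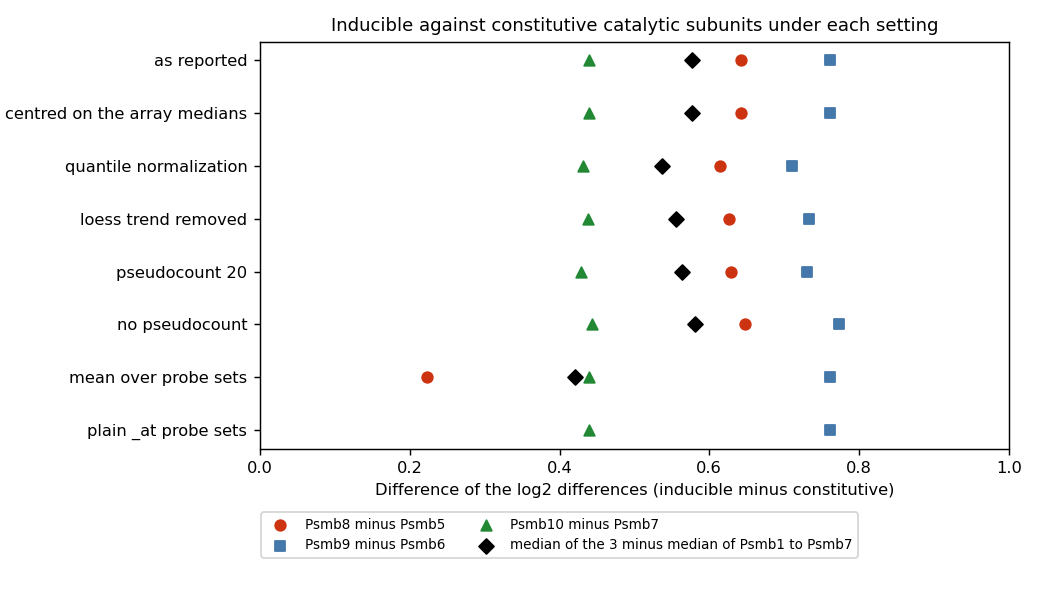
Log2 difference (congenic minus control) of each inducible catalytic subunit minus that of its constitutive counterpart, and the same for the group medians, under the reported setting and 7 alternatives. All points lie above 0. The pair of Psmb8 moves to 0.22 with the mean over probe sets, and has no value with plain _at probe sets because neither gene has one.

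The alpha ring was nearly level between the arrays, with Psma8 as the exception. Psma2 showed the widest difference of the 7 alpha subunits of ordinary cores, at 1818 on the congenic against 1614 on the control array (0.17). Psma4 was the closest, at 2122 against 2104 (0.01). The others differed by 0.02 for Psma5, 0.09 for Psma3 and Psma6, 0.10 for Psma1 and 0.11 for Psma7. All 7 were thus slightly higher by their brightest probe set, beside 56.1% of all expressed genes, whose median was 0.04. They stayed above 0 after each scaling tried, though some barely, such as Psma4 at 0.0020 after loess. With all probe sets averaged, Psma1 (-0.02) and Psma3 (-0.17) turned lower. Psma6, with 3 expressed probe sets, ranged from 0.06 to 0.21, and Psma5, with 2 of them, from 0.02 to 0.28. Psma8, the testis counterpart of Psma7, was dim at 8.84 against 20.5 (log2 difference -0.88), reached the array median on the control array alone, with a difference of -0.49 at a pseudocount of 20 and -1.21 without one.

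The 19S ATPases, the ring that unfolds substrates, had a median difference of 0.0045. Psmc2 was the highest, at 2025 on the congenic against 1878 on the control array (0.11), and Psmc3 the lowest, at 1124 against 1165 (-0.05). Psmc1 (0.01), Psmc4 (0.04), Psmc5 (-0.0014) and Psmc6 (-0.03) lay between them. Second probe sets were similarly close where they were bright: that of Psmc2 differed by -0.06, that of Psmc4 by -0.0036 and that of Psmc6 by 0.12.

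The non-ATPase subunits of the 19S cap spread a little further. Psmd7, the partner of the deubiquitinase Psmd14 in the lid, was the lowest of the 20S and 19S subunits other than Psma8, at 409 on the congenic against 487 on the control array (log2 difference -0.25), and was also among the dimmest of them. Psmd14 itself stood at 1243 against 1175 (0.08). Psmd11, a lid subunit whose amount can limit assembly of the cap, was the highest of the group at 2529 against 2268 (0.16), and its 4 brightest of 8 probe sets ranged from -0.02 to 0.21.

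The subunits that recognize ubiquitin and scaffold the cap showed no common direction. The scaffold Psmd2 differed by -0.13 and the other scaffold, Psmd1, by 0.04, at 1614 against 1575. Psmd1 is the single member encoded on chromosome 1, the chromosome of the Bglu3 locus, in the gene table of GRCm38.p6, and the members lie on 16 chromosomes. The ubiquitin receptor Psmd4 differed by 0.09 by its brightest probe set, with others at -0.10 and 0.20. The lid subunits Psmd3 (0.02), Psmd6 (0.07), Psmd8 (-0.05), Psmd12 (0.05) and Psmd13 (0.09) completed the 11, whose median was 0.05.

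Over the 31 alpha, constitutive beta and 19S subunits other than Psma8, the differences ran from -0.25 to 0.17 with a median of 0.04, the same as the 0.04 of all expressed genes. None of the 31 passed 1.5-fold. All 31 are bright genes, of which 5.99% passed it, a share that would amount to few among so small a number. Of the bright genes 65.0% fell within the range of these subunits, as did 48.9% of all expressed genes. The SD of the 31 differences was 0.09, beside 0.32 for the bright genes, which were not matched to the 31 in intensity. They were higher at any size in 22 and lower in 9, beside 56.1% higher of all expressed genes, and with all probe sets averaged, dim ones included, the split was 15 and 16 and the range -0.58 to 0.33. Including second probe sets, the 46 probe sets of these genes with a mean intensity of at least 100 ranged from -0.25 to 0.28.

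**Figure D3:**
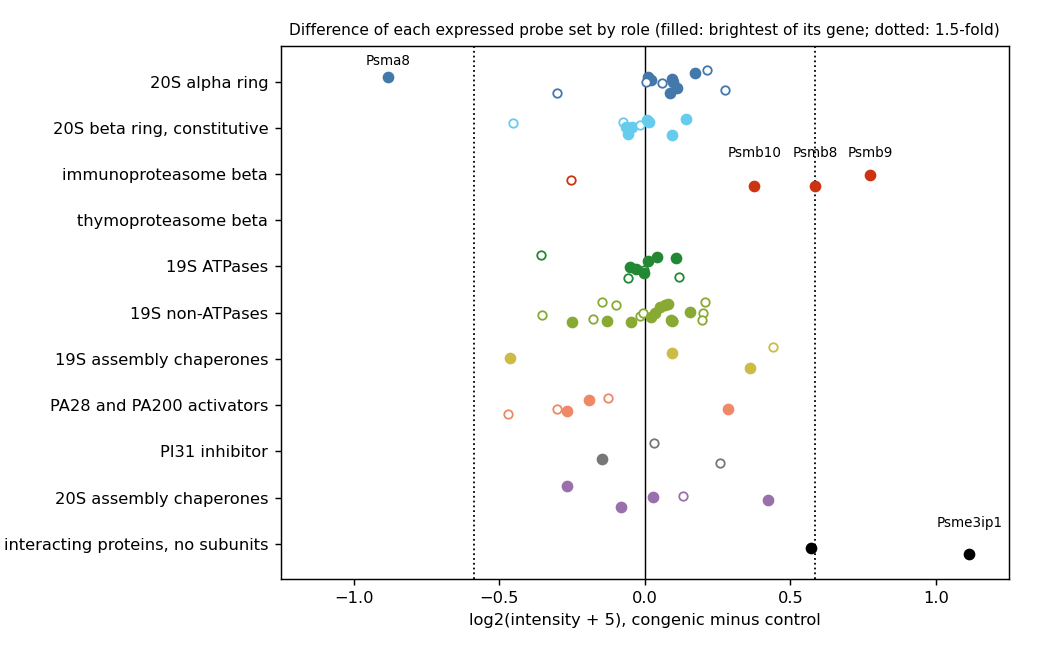
Log2 difference (congenic minus control) of each expressed probe set by role, with filled points for the brightest probe set of a gene, open points for its others and dotted lines at 1.5-fold. The brightest probe sets of the alpha, constitutive beta and 19S subunits lie between -0.25 and 0.17 except for Psma8, and the open point of the immunoproteasome group is the second probe set of Psmb8 at -0.26.

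The activators that replace or join the 19S cap did not move together. Psme1, the PA28 alpha subunit that interferon gamma induces and that opens the core for peptides, stood at 1888 on the congenic against 1547 on the control array (log2 difference 0.29). Psme3, the nuclear PA28 gamma, was at 184 against 223 (-0.27), with another probe set at -0.47. Psme4, the nuclear activator PA200, was at 769 against 879 (-0.19), and its 3 expressed probe sets were all lower, from -0.30 to -0.13. No value is given for the partner subunits of Psme1, whose probe set carries more than 1 symbol. The inhibitor gene Psmf1, which encodes PI31, differed by -0.15, with other probe sets at 0.03 and 0.26.

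The chaperones that assemble the particle spread more widely than its subunits, at lower intensities. Of the 20S chaperones, which pair to build the alpha ring, Psmg3 stood at 290.3 on the congenic against 215 on the control array (0.42) and its partner Psmg4 at 272 against 329 (-0.27). Psmg1 differed by 0.03 and its partner Psmg2 by -0.08. Of the 19S chaperones, Psmd5 was at 163 against 226 (log2 difference -0.46) and Psmd10, also known as gankyrin, at 299.8 against 232 (0.36). Psmd9 differed by 0.09. None of these 7 reached 1.5-fold, beside 12.9% of all expressed genes, a share that would amount to few or none among 7. None but Psmg2 and Psmd9 had a second expressed probe set, at 0.13 for Psmg2 and at 0.44 for Psmd9. That of Psmd9 was dim, reached the array median on the congenic array alone and so had to differ.

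The largest difference among the 49 genes belonged to a gene that encodes no subunit, except without a pseudocount, where Psma8 (-1.21) passed Psme3ip1 (1.13). Psme3ip1, which encodes a protein that binds PA28 gamma, stood at 591 on the congenic against 270.2 on the control array, a log2 difference of 1.11 or 2.16-fold, on its single probe set, while 3.44% of expressed genes differed by 2-fold or more in either direction. Its partner Psme3 had the opposite direction, as given above. Psmc3ip, which acts in meiotic recombination, was dim, at 24.4 against 14.8 (0.57), and its other probe set, below the median of both arrays, differed by -0.56.

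**Figure D4:**
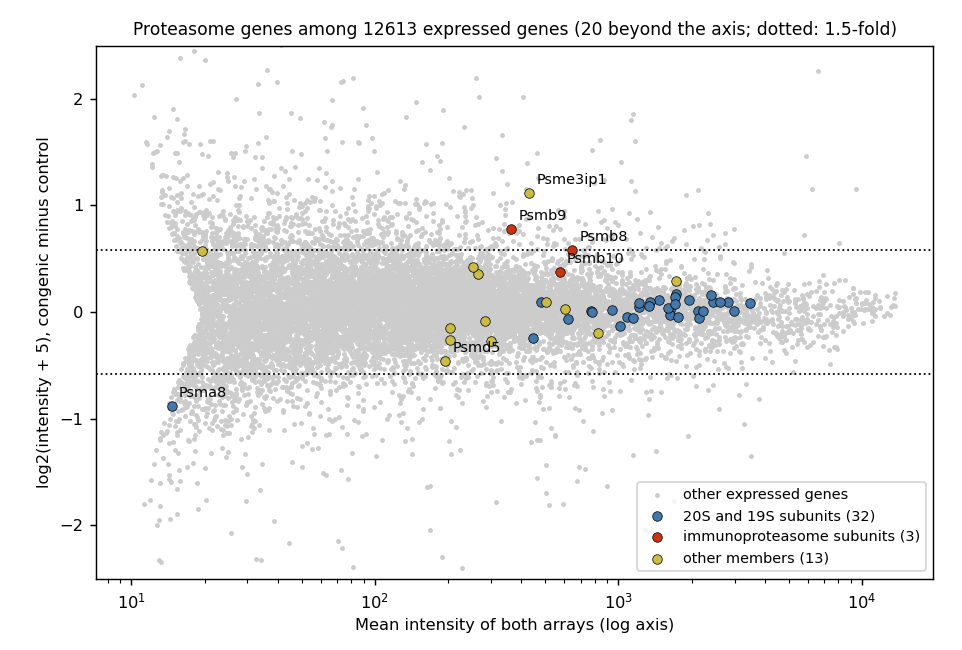
Log2 difference (congenic minus control) against the mean intensity of both arrays (log axis) for 12613 expressed genes (grey) with the proteasome genes in colour and dotted lines at 1.5-fold, where 20 genes lie beyond the axis. The alpha, constitutive beta and 19S subunits other than Psma8 form a flat band, and Psmb9 and Psme3ip1 lie above the upper line.

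Read against all genes, the inducible subunits were high without being extreme. Psmb9 lay at percentile 96.1 of the differences of expressed genes, with 498 genes at or above it, Psmb8 at percentile 92.4 and Psmb10 at 84.4. Psme1 lay at percentile 78.6. The constitutive catalytic subunits lay at 36.03 (Psmb5), 45.6 (Psmb6) and 35.1 (Psmb7). Among the bright genes, Psmb8 was at percentile 96.8 and Psmb10 at 92.9, and Psmb9 was too dim to belong to it. Expressed probe sets of the same proteasome gene differed with an SD of 0.21 over 20 genes, beside 0.34 over all 5189 genes with several. The differences of Psmb9 (0.77) and Psmb10 (0.38), with 1 probe set each, exceed the former, while Psmb8 exceeds it by its brightest probe set (0.59) and not with both averaged (0.17). Other proteasome genes exceed 0.21 in size too, such as Psmd5 (-0.46), Psmg3 (0.42), Psmd10 (0.36), Psme1 (0.29) and Psme3 (-0.27). Passing this SD therefore does not set the inducible subunits apart. This SD measures disagreement of probe sets on the same arrays and not the spread between animals.

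The promoter table held 44 windows for 41 of the 49 genes, each of 300 bases from 250 before to 50 after a start. The antioxidant response element cores, bound by the NRF factors that raise proteasome genes when proteolysis is impaired, matched in 18 windows (40.9%), beside 27.8% of all 32851 windows. The interferon-stimulated response element matched in 5 windows (11.4%, against 3.44% of all), of Psmb3, Psmd4, Psmd9, Psme1 and Psmg4. The gamma-activated site matched in 3 (6.82%, against 8.30%), of Psmb8, Psmd2 and Psmg1. The CCAAT box matched in 36.4%, beside 37.4% of all. Of the 8 genes with an interferon motif, Psmb8 and Psme1 were higher at 0.59 and 0.29, while the log2 differences of the others ran from -0.27 for Psmg4 to 0.14 for Psmb3. A match describes letters and not a bound site.

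The list for peptide loading onto MHC class I also holds the class I genes H2-K1, H2-D1 and B2m and the regulator Nlrc5. Its genes were higher at any size in 12 of 12, beside 56.1% of all expressed genes. The count was 10 after quantile normalization, 11 after loess and 9 with probe sets averaged. Some of the 12 also had other expressed probe sets that were lower, down to -0.59. By 1.5-fold 2 were higher, where 7.59% of all expressed genes were. Tap2 stood at 159 on the congenic against 97.8 on the control array (log2 difference 0.67) and Tap1 at 221 against 145 (0.59). In gene order on chromosome 17, Psmb9, Tap1, Psmb8 and Tap2 follow each other, and by their brightest probe sets all 4 differed by 0.59 to 0.77. The lowest of the list were Erap1, which trims peptides, at 267 against 263 (0.02), and the class I heavy chain gene H2-K1 at 6536 against 6376 (0.04). The list's median was 0.25, beside 0.04 for all expressed genes, and 0.06 with probe sets averaged. Class I heavy chain genes are close in sequence and a probe set for H2-K1 may read its relatives too, so its value is uncertain.

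The interferon gamma pathway was mixed. Of 17 expressed genes, 2 were higher and 2 lower by 1.5-fold or more, with a median of 0.15, where 7.59% of all expressed genes were higher and 5.26% lower. Ifng itself was dim at 22.7 on the congenic against 13.0 on the control array (0.62), passed through the congenic array alone and so had to differ, which leaves 1 gene higher without it. Gbp3, a guanylate-binding protein that interferon gamma induces, stood at 418 against 275 (0.59). Socs1, an inhibitor of the pathway, was at 33.5 against 57.2 (-0.69) and the chemokine gene Cxcl10 at 90.8 against 140.2 (-0.60). Irf1, the factor that drives the inducible subunits, differed by 0.43, at 535 against 395, and lies outside the rule for naming genes, so it was named with its value known. Loess removal and quantile normalization each left 1 gene higher, and a pseudocount of 20 left none.

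Factors that work with the proteasome were close to level by their brightest probe sets. Of 14 expressed associated factors, 1 was higher by 1.5-fold, where 7.59% of all expressed genes were, and none lower, with a median of 0.10. Usp14, a deubiquitinase on the 19S cap, stood at 238 on the congenic against 156 on the control array (0.59), with 4 probe sets from -0.62 to 0.59, and Fbxo7, a PI31 partner, at 188 against 140 (0.42), while Ube3c, a ubiquitin ligase of the proteasome, was at 167 against 189 (-0.17) and Ngly1, a deglycosylating enzyme, at 535 against 594 (-0.15). Other expressed probe sets of the associated factors reached -1.94 for Uchl5, -0.68 for Ube3a and 0.66 for Zfand5. Of 12 genes for ubiquitin delivery none passed 1.5-fold by its brightest probe set, where 12.9% of all expressed genes did, and the median was -0.0030. Their extremes were Bag6, a chaperone of misplaced proteins, at 0.37, Ubqln2, a shuttle, at 0.23, Nploc4, a cofactor of the segregase Vcp, at -0.24 and Ubqln4 at -0.16. Another expressed probe set of Ube2k, of the same list, was at -1.46.

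**Figure D5:**
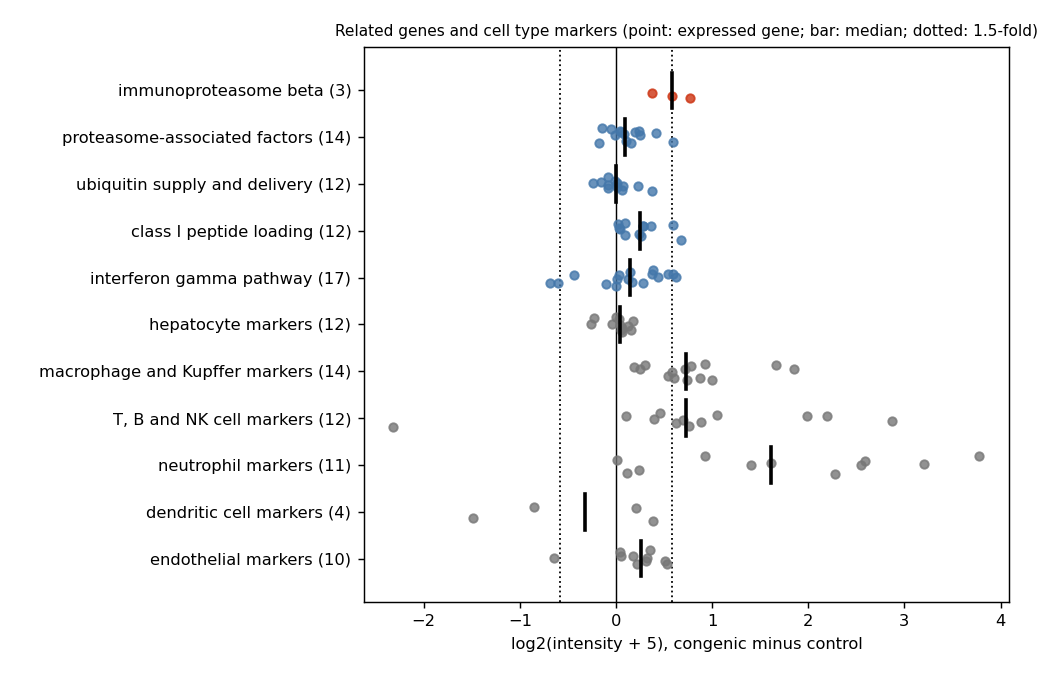
Log2 difference (congenic minus control) of each expressed gene (points) and the median (bar) of the immunoproteasome subunits, of 4 related lists and of 6 marker lists, with dotted lines at 1.5-fold and the number of expressed genes in brackets. The medians of the immunoproteasome subunits (0.59), macrophage markers (0.73) and lymphocyte markers (0.73) lie to the right of the associated factors (0.10) and hepatocyte markers (0.05). Neutrophil markers lie further right (1.61), endothelial markers at 0.26, and dendritic cell markers to the left of 0 (-0.32).

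Markers of macrophages, lymphocytes and neutrophils were also higher in the congenic array. Macrophage and Kupffer cell markers were higher at any size in 14 of 14 expressed genes, also after each scaling, beside 56.1% of all expressed genes. By 1.5-fold 9 of them were higher, beside 7.59% of all expressed genes. The median of the list was 0.73. Its summed intensity was 35143 against 23552 over the 15 measured, a ratio of 1.49. The summed intensity of the 3 immunoproteasome subunits was 1883 against 1280, a ratio of 1.47, and that of the 31 alpha, constitutive beta and 19S subunits 51640.5 against 49974, a ratio of 1.03. The macrophage list ran from Cd5l (0.19) and Lyz2 (0.25) to Timd4 (1.66) and Marco (1.85). The part of these cells in the difference of Psmb8, Psmb9 and Psmb10 was not tested, and in whole liver more cells of a type and more RNA per cell cannot be told apart.

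Other marker lists differed in size and direction, where 7.59% of all expressed genes were higher and 5.26% lower by 1.5-fold. T, B and NK cell markers were higher by 1.5-fold in 8 of 12 expressed genes and lower in 1, Prf1, which passed on the control array alone, with a median of 0.73 and a summed intensity of 1392 against 504, between Prf1 (-2.32) and Klrk1 (0.11) at the low end and Ighm (2.19) and Jchain (2.87) at the high end. Neutrophil markers were higher in 8 of 11 (median 1.61, summed 4292 against 1373), from Csf3r (0.01) and Cxcr2 (0.12) to Prtn3 (3.20) and Camp (3.78). Of these 8, Camp, Ltf, Mpo and Prtn3 were below the median of the control array and passed through the congenic array alone, so they had to differ, and 4 were higher among those that passed on both. Dendritic cell markers had 4 expressed genes, 2 of them lower (Cd209a at -1.49, which passed on the control array alone, and Zbtb46 at -0.85) and the others Itgax at 0.21 and Batf3 at 0.39, with a summed intensity of 224 against 243. Endothelial markers had a median of 0.26 and 1 of 10 lower (Lyve1 at -0.64), with Vwf at 0.04, Kdr at 0.51 and Cdh5 at 0.53.

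Among the remaining lists, 4 of 8 stellate cell markers were higher by 1.5-fold (median 0.52), beside 7.59% of all expressed genes. Rgs5 (1.14) and Col1a1 (1.12) were the highest of them, and Des (-0.16) and Reln (-0.13) the lowest. Erythroid markers had a median of -0.12 over 5, between Car1 (-0.66) and Epor (-0.19) and Slc4a1 (0.43) and Klf1 (0.88). Cholangiocyte markers had a median of -0.15 over 4, from Sox9 (-0.50) and Epcam (-0.26) to Krt19 (-0.04) and Krt7 (0.31). Of the acinar markers of the pancreas Cela1 alone was expressed (0.05), and Cpa1 was at the recurring low value of 1 on the control array. Hepatocyte markers ran from Hnf4a (-0.26) and Ass1 (-0.23) to Hpx (0.16) and Fgb (0.17). No other listed marker stood at that low value of 1, and the lowest macrophage marker, Itgam, was at 12.9 against 10.8.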

How the data were processed

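Liver RNA of 2 groups was measured on 1 array each, from 8 µg of total RNA per the labels' protocols. For 45101 probe sets the deposited value is an intensity on a linear scale, 1 for each array. No summarization or scaling step of the authors is given in the sources used here. Of the probe sets, 64 are controls and 34945 others carry a single gene symbol, and genes were named from these alone. Precision is limited by the number of arrays, and no test or error can be had. Differences, counts and medians were computed in Python 3.11.15 with numpy 2.4.6, pandas 2.3.3 and, for the loess trend (span 0.3), statsmodels 0.14.6. The procedure was tested on simulated data with planted shifts larger than the reported difference of any proteasome gene. That test therefore does not cover differences of the size seen here. The pseudocount, 5, is close to the 20th percentile of the arrays (4.58 and 4.89). All members were named, with the 2 highest and 2 lowest expressed genes of each other list. The members and lists were chosen with earlier results of these data known. Comparisons with the bright genes were added after the data were seen. Alternatives were median centring, quantile normalization, loess, pseudocounts of 20 and none, other rules for probe sets, other filters and a 2-fold size. Listed genes without a single-symbol probe set were not analysed here.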

Additional observations from a re-analysis of the deposited data

How the results depend on the processing

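With 1 array per group, a value was taken as moved when it shifted by more than 0.21, the SD between expressed probe sets of the same proteasome gene, and a count when it changed by 1.5 times or more. None of the proteasome genes past 1.5-fold changed direction under the settings tried. For Psmb9, Psme3ip1 and Psma8, with 1 probe set each, the rules for probe sets could not change the value. Psmb8 has a second probe set, which went the other way (-0.26). Genes of the other lists were not followed one by one. Averaging probe sets moved the pair of Psmb8 and Psmb5 to 0.22, the median of the 19S assembly chaperones to 0.36 and that of the activators from -0.19 to 0.17, where dim probe sets count as much as bright ones. The number of proteasome genes higher by 1.5-fold was 2 with a pseudocount of 20, with probe sets averaged and with plain _at probe sets, and 1 at 2-fold. The number lower was 0 with a pseudocount of 20, with the 75th percentile filter, with the 50th percentile on both arrays and at 2-fold. Quantile normalization and loess left the count at 3 because Psmc3ip came in where Psmb8 dropped out. Genes of the class I loading list higher by 1.5-fold were 1 with quantile normalization, loess, a pseudocount of 20, probe sets averaged or plain _at probe sets. Interferon gamma genes were 1 with quantile normalization, loess, plain _at probe sets, the 75th percentile filter or the 50th percentile on both arrays, and 0 with a pseudocount of 20. Associated factors were 0 with quantile normalization, loess, a pseudocount of 20 or probe sets averaged. Of these pairs, medians and counts, the other 180 of 206 stayed within these limits. Of 337 values of single proteasome genes 20 moved and 10 of these turned sign, with probe sets averaged for Psma3 (-0.17), Psmb1 (-0.58), Psmd11 (-0.33), Psme4 (0.17), Psmf1 (0.07), Psmg2 (0.15) and Psmg4 (0.27), and with plain _at probe sets for Psma3 (-0.42), Psmb1 (-0.45) and Psmg2 (0.13). No plain _at probe set exists here for Psmb5 or Psmb8, so that setting gave no value for their pair or for the inducible against the constitutive median, and its median of the constitutive beta ring (-0.03) lacks Psmb5. The share of expressed genes past 1.5-fold was 7.20% with a pseudocount of 20, and without a filter it was 16.8% of all 18193 genes. No paired analysis was possible because each group has 1 array.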
